A study of Mus musculus with 6 samples.

Results

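The receptor complexes for Wnt7a, Wnt7b and Norrin were examined through the 9 genes that encode their ligands and receptors, out of 23827 genes listed. The genes were chosen by name: the ligand genes Wnt7a, Wnt7b and Ndp (which encodes Norrin), the Wnt7 receptor partners Gpr124 (now named Adgra2) and Reck, the receptor gene Fzd4 with its partner Tspan12, and the co-receptor genes Lrp5 and Lrp6. All 9 were listed, and all 9 passed the filter on low values used for the tests, a mean of at least 1 RPKM (reads scaled to transcript length and to the mapped reads of the library), as did 12493 genes in all. RNA was taken from brain endothelial cells of mouse embryos at E14.5 (embryonic day) by translating ribosome affinity purification (TRAP), in which ribosomes that carry a tag in the cells of interest are captured with their bound messenger RNA. The tested embryos overexpressed Axin1 from a cassette in the R26 (Rosa26) locus that also carries IresLacZ, and the other embryos were labelled Wt, with 3 biological replicates per group. Both groups were on the C57BL/6 x 129/Sv background, and in both the mother had received tamoxifen at E12.5. No source used here gives the recombinase that tamoxifen acts on, the promoter that drives it or the one that drives the ribosome tag.

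As background, Wnt7a and Wnt7b are secreted by neural progenitors and reach the endothelial cells that grow into the brain. There Gpr124, an adhesion receptor, and Reck, a membrane-anchored protein that also inhibits matrix proteases, form a complex that lets Frizzled receptors respond to these ligands in particular. Norrin is not a Wnt protein, but it binds Fzd4, with the tetraspanin Tspan12 as an amplifier. Both routes need Lrp5 or Lrp6 and act by keeping beta-catenin from destruction, and they are known for vessel growth into the brain and retina and for the blood-brain barrier. Axin1 holds together the proteins that target beta-catenin for destruction, and so it acts downstream of all 9 proteins.

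Promoter sequences are shown for Fzd4 (called higher) and Reck (called lower, a call that other settings did not always keep). They are the called genes among the 5 of 9 members matched in the RefSeq promoter table of build GRCm38.p6. The 250 bases before the start of Fzd4 lie on the plus strand at chr7:89404116-89404365, and those of Reck on the plus strand at chr4:43875280-43875529. Capitals mark the TCF/LEF core CTTTG or its reverse complement CAAAG, TCF/LEF being the factors that carry beta-catenin to DNA.
Fzd4: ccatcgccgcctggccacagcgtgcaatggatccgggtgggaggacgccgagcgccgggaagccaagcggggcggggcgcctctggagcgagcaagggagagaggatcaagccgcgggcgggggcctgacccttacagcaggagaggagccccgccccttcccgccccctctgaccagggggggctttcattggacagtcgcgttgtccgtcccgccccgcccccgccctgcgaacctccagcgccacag
Reck: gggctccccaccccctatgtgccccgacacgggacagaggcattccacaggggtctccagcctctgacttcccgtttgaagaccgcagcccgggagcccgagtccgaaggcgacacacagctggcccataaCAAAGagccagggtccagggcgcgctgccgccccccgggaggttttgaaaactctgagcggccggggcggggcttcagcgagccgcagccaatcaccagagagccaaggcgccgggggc
Reck held 1 match, which began 119 bases before its start, and the Fzd4 window held 0. Among the matched members that were not called, Ndp and Tspan12 held 1 match each and Wnt7a held 0. Of 27025 promoters of the same length, 48.8% held this core on either strand. The ETS core CCGGAA or TTCCGG, a motif of endothelial transcription factors, was in 12.2% of promoters and in neither the Fzd4 nor the Reck window. GC content was 72.8% for Fzd4 and 68.4% for Reck, against a median of 52.0% for all promoters.

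The depth recovered from the values was 21072907 to 37033006 reads in the Axin1 libraries and 53514277 to 62495861 reads in the wild-type libraries. Axin1 itself, the overexpressed gene, stood at 37.8, 38.1 and 37.4 RPKM in Axin1 libraries and at 13.6, 14.4 and 15.1 RPKM in wild-type libraries, with no overlap (log2 fold change 1.34, SE 0.06, limma adjusted p = 2.25e-05). Of 12493 genes, 1800 (14.4%) were higher and 1046 (8.37%) lower at a limma adjusted p under 0.05, which is 22.8% in all. With median-of-ratios scaling 1248 were higher and 1392 lower, with a shared upper quartile 1117 and 1466, and with each library corrected for GC and length 919 and 896. The counts were 589 higher and 465 lower without Axin1 replicate 2, 801 higher and 601 lower without Axin1 replicate 3, and 1186 higher without wild-type replicate 1. The column headers carry a tag that all libraries of a group share and that differs between the groups. No source used here says what it means, and if it marks a batch, batch and genotype cannot be told apart.

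With Axin1 overexpression, 1 of the 9 genes was higher and 2 were lower. Fzd4, the receptor of Norrin, rose, and Reck and the co-receptor gene Lrp6 fell, each by a log2 of 0.32 to 0.39. Fzd4 kept its call under all 16 other settings, while Lrp6 lost it under 2 and Reck under 9. The ligand genes Wnt7a, Wnt7b and Ndp, and Gpr124, Tspan12 and Lrp5, did not pass. The 3 called genes stand against the 22.8% of all tested genes that were called. Groups did not overlap for 4 of the 9, against 43.9% of tested genes, with 2 higher (28.0% of tested genes) and 2 lower (15.9%). These shares give no result about the 9 genes as a set. Their median log2 fold change was 0.01, and that of all tested genes was 0.04. Unless another setting is named, log2 fold changes are for Axin1 overexpression over wild type on the log2(RPKM + 1) scale. This scale understates those of low genes such as Ndp. In such bulk RNA, fewer cells of a type and less RNA per cell cannot be told apart.

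**Figure D1:**
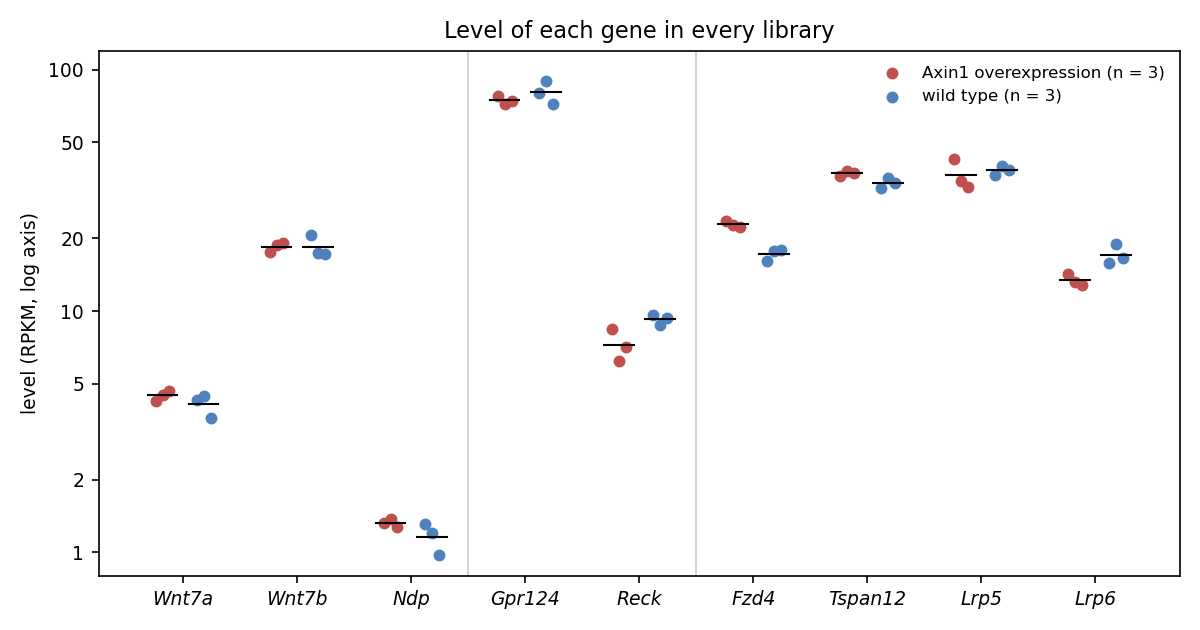
Level of the 9 genes in RPKM (log axis) in each of 3 Axin1 overexpression libraries (red, left) and 3 wild-type libraries (blue, right), with the mean of each group as a line; grey lines part ligands, Wnt7 receptor partners, and Frizzled complex genes. Gpr124 is the highest in both groups at 72.2 to 89.9 RPKM, Ndp the lowest at 0.975 to 1.37 RPKM, and the groups are apart for Fzd4, Tspan12, Reck and Lrp6.

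None of the ligand genes passed the test. Wnt7b stood at 17.6, 18.7 and 19.2 RPKM in Axin1 libraries, against 20.6, 17.5 and 17.2 RPKM in wild-type libraries. The ranges overlapped, with the highest value in a wild-type library, and the log2 fold change was 0.01 (95% interval from -0.18 to 0.19, limma adjusted p = 0.958). Wnt7a stood lower, at 4.25, 4.50 and 4.65 RPKM in Axin1 libraries and at 4.28, 4.43 and 3.61 RPKM in wild-type libraries. Wild-type replicate 3 lay below the other 5 libraries, and the log2 fold change was 0.10 (95% interval from -0.07 to 0.28, limma adjusted p = 0.358). Ndp stood near the filter, at 1.32, 1.37 and 1.28 RPKM in Axin1 libraries and at 1.31, 1.20 and 0.975 RPKM in wild-type libraries. These values rest on 52 to 98 reads in Axin1 libraries and 108 to 157 reads in wild-type libraries, so that counting alone gives an error of 8.0% to 13.9% per library, and the groups overlapped (log2 fold change 0.11, 95% interval from -0.06 to 0.27, limma adjusted p = 0.299). The sign of the Ndp difference turned with the GC and length correction (-0.03), and that of Wnt7b with either rescaling (-0.04 and -0.05).

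Markers of neural progenitors, the cells known to make Wnt7a and Wnt7b, were present in these endothelial preparations and moved with the genotype. Of 12 such markers 7 were higher and 0 lower by limma, against 14.4% and 8.37% of all tested genes. The median log2 fold change of these markers was 0.51, against 0.04 for all tested genes. Without Axin1 replicate 2 or with no filter on low values, 4 markers were higher. Their summed level was 861 to 933 RPKM in Axin1 libraries and 646 to 786 RPKM in wild-type libraries. Nes, which developing vessels also express, made up the largest portion of that sum, with a mean of 431 RPKM in Axin1 libraries and 373 RPKM in wild-type libraries. Among the defining markers, Sox2 averaged 58.2 ± 5.91 RPKM in Axin1 libraries and 33.6 ± 4.52 RPKM in wild-type libraries, and Pax6 averaged 17.0 ± 1.15 RPKM in Axin1 libraries and 10.2 ± 0.70 RPKM in wild-type libraries (SD, n = 3 each). Within each library, Wnt7b was 0.226, 0.244 and 0.268 of the mean level of these markers with Axin1 overexpression, against 0.315, 0.324 and 0.296 in wild type. The ratio of Wnt7b to these markers was thus lower in 3 of 3 Axin1 libraries (log2 difference -0.35), with a two-sided exact permutation p of 0.1, the smallest that 3 against 3 libraries allow. For Wnt7a the same ratio was 0.0547, 0.0586 and 0.0648 in Axin1 libraries and 0.0653, 0.0823 and 0.062 in wild-type libraries, which overlapped (exact permutation p = 0.2). The part of carried-over neural RNA in the ligand levels was not tested.

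The balance of the ligands differed little. Wnt7a was 0.242, 0.240 and 0.242 of Wnt7b in Axin1 libraries and 0.207, 0.254 and 0.210 of Wnt7b in wild-type libraries, all on the RPKM scale, which is per length. The Axin1 values lay inside the wild-type range (exact permutation p = 0.4). Wnt7b is counted over 3 transcripts and an antisense gene shares 236 bases (5.1%) of its exons in the GRCm38 annotation, so its level and this ratio are less certain than those of the single-transcript genes.

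Gpr124, the adhesion receptor of the Wnt7 complex, was the most abundant of the 9 genes in all 6 libraries. It stood at 77.6, 72.2 and 74.2 RPKM in Axin1 libraries and at 79.9, 89.9 and 72.2 RPKM in wild-type libraries, above 92.1% of tested genes in the mean with Axin1 overexpression and above 93.3% in wild type. The difference was within the spread of the wild-type libraries (log2 fold change -0.10, 95% interval from -0.30 to 0.09, limma adjusted p = 0.392), and its sign turned with the GC and length correction (0.11). Of its exonic bases 1.3% are shared with Brf2 on the other strand, and no source used here says that strand was used in counting.

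Reck, the partner of Gpr124, fell. It stood at 8.40, 6.24 and 7.13 RPKM in Axin1 libraries and at 9.60, 8.79 and 9.38 RPKM in wild-type libraries, and the groups did not overlap. The log2 fold change was -0.32 (SE 0.10, limma adjusted p = 0.0428), with means of 7.25 ± 1.09 RPKM in Axin1 libraries and 9.26 ± 0.419 RPKM in wild-type libraries (SD, n = 3 each). The adjusted p lay close to the threshold, and it ranged from 0.0192 to 0.14 over 16 other settings, of which 9 ended the call while none turned the sign. Leaving out Axin1 replicate 2 gave 0.14 (log2 fold change -0.23) and leaving out Axin1 replicate 3 gave 0.11, and it was 0.103 without wild-type replicate 1, 0.056 without wild-type replicate 2 and 0.0937 without wild-type replicate 3. With a pseudocount of 10 the log2 fold change was -0.16. Of 9 tested pericyte and smooth muscle markers 4 were lower (median log2 fold change -0.25), against 8.37% of all tested genes. With 1 library left out that count ran from 0 to 4. The summed level of these markers overlapped, at 31.4 to 44.4 RPKM in Axin1 libraries and 43.5 to 51.4 RPKM in wild-type libraries. The ratio of Reck to the mean of these markers overlapped, at 1.89, 1.87 and 2.27 in Axin1 libraries and 1.96, 2.02 and 1.82 in wild-type libraries, while its ratio to the mean of 12 pan-endothelial markers did not overlap (0.0334, 0.0273 and 0.0296 in Axin1 libraries, against 0.0418, 0.0372 and 0.04 in wild-type libraries). Both ratios were added after their values were seen, with an exact permutation p of 0.8 for the first and 0.1 for the second. Meningeal fibroblast markers also had a negative median (-0.32), and no ratio of Reck to them was computed. The part of pericytes, smooth muscle cells or fibroblasts in the Reck result was not tested.

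The Gpr124 and Reck transcripts were far from equal. Reck was 0.108, 0.0863 and 0.096 of Gpr124 in Axin1 libraries and 0.12, 0.0978 and 0.13 of it in wild-type libraries. These ranges overlapped (exact permutation p = 0.2).

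Fzd4, the Frizzled that Norrin binds, rose with Axin1 overexpression. It stood at 23.6, 22.8 and 22.2 RPKM in Axin1 libraries and at 16.1, 17.8 and 17.9 RPKM in wild-type libraries. The lowest Axin1 value was above the highest wild-type value, and the level was 32.7% higher in the mean (22.9 ± 0.673 RPKM in Axin1 libraries against 17.2 ± 1.02 RPKM in wild-type libraries; SD, n = 3 each). The log2 fold change was 0.39 (SE 0.06, 95% interval from 0.24 to 0.54, limma adjusted p = 0.00578). This call was kept under all 16 other settings, with a log2 fold change of 0.27 to 0.42 and an adjusted p of 0.00288 to 0.029. The lowest fold change came with a pseudocount of 10 and the highest with voom on recovered reads, which are on other scales. Its ratio to the mean of 12 pan-endothelial markers was 0.0937, 0.0998 and 0.0924 in Axin1 libraries and 0.0699, 0.0752 and 0.0762 in wild-type libraries, also without overlap. That ratio was added after its values were seen (exact permutation p = 0.1). The level of Fzd4 was above 68.4% of tested genes with Axin1 overexpression and above 60.9% in wild type.

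Tspan12, which amplifies Norrin signals through Fzd4, differed in the same direction but did not pass. It stood at 36.3, 38.1 and 37.3 RPKM in Axin1 libraries and at 32.4, 35.7 and 34.0 RPKM in wild-type libraries. The groups did not overlap, yet the log2 fold change was 0.13 with a limma adjusted p of 0.165 (95% interval from -0.01 to 0.27), and the GC and length correction turned its sign (-0.055). An antisense gene shares 98 bases (3.9%) of the Tspan12 exons. Fzd4 transcripts were 0.65, 0.599 and 0.596 of Tspan12 in Axin1 libraries and 0.496, 0.498 and 0.526 of it in wild-type libraries (exact permutation p = 0.1). That ratio was added after its values were seen. Ndp was 0.0562, 0.0602 and 0.0575 of Fzd4 in Axin1 libraries, inside the wild-type values of 0.0817, 0.0674 and 0.0545.

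Of the co-receptor genes, Lrp6 was called and Lrp5 was not. Their 95% intervals overlapped, so these calls alone do not show that the genes responded differently. Lrp6 stood at 14.3, 13.2 and 12.8 RPKM in Axin1 libraries and at 15.9, 19.0 and 16.6 RPKM in wild-type libraries, with no overlap. It fell by 0.33 on the log2 scale (SE 0.08, 95% interval from -0.51 to -0.15, limma adjusted p = 0.022), with means of 13.4 ± 0.801 RPKM in Axin1 libraries and 17.2 ± 1.63 RPKM in wild-type libraries (SD, n = 3 each). The call was lost when Axin1 replicate 2 (adjusted p = 0.0818) or Axin1 replicate 3 (0.0758) was left out, within a range of 0.0148 to 0.0818 over 16 settings, none of which turned the sign. Lrp5 stood at 42.6, 34.7 and 32.8 RPKM in Axin1 libraries and at 36.6, 40.1 and 38.3 RPKM in wild-type libraries. Axin1 replicate 1 was the highest of the 6 libraries and Axin1 replicate 3 the lowest, so the groups overlapped (log2 fold change -0.07, 95% interval from -0.29 to 0.15, limma adjusted p = 0.631). The sign of the Lrp5 difference turned without Axin1 replicate 3 and with the GC and length correction (0.10).

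Lrp5 exceeded Lrp6 in every library. The ratio of their RPKM was 2.97, 2.64 and 2.56 in Axin1 libraries and 2.30, 2.11 and 2.31 in wild-type libraries. All Axin1 values were above all wild-type values (log2 difference 0.28), with the exact permutation p at its smallest possible value of 0.1. The ratio of Fzd4 to Lrp6 was 1.65, 1.73 and 1.74 in Axin1 libraries against 1.01, 0.935 and 1.08 in wild-type libraries (log2 difference 0.76). That pair was set side by side after the values of both genes had been seen. Fzd4 was higher and Lrp6 lower in all Axin1 libraries, so the groups had to be apart for this ratio. It restates those differences and adds no evidence. In all 13 ratios were computed, and with Benjamini-Hochberg adjustment the lowest value was 0.162.

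**Figure D2:**
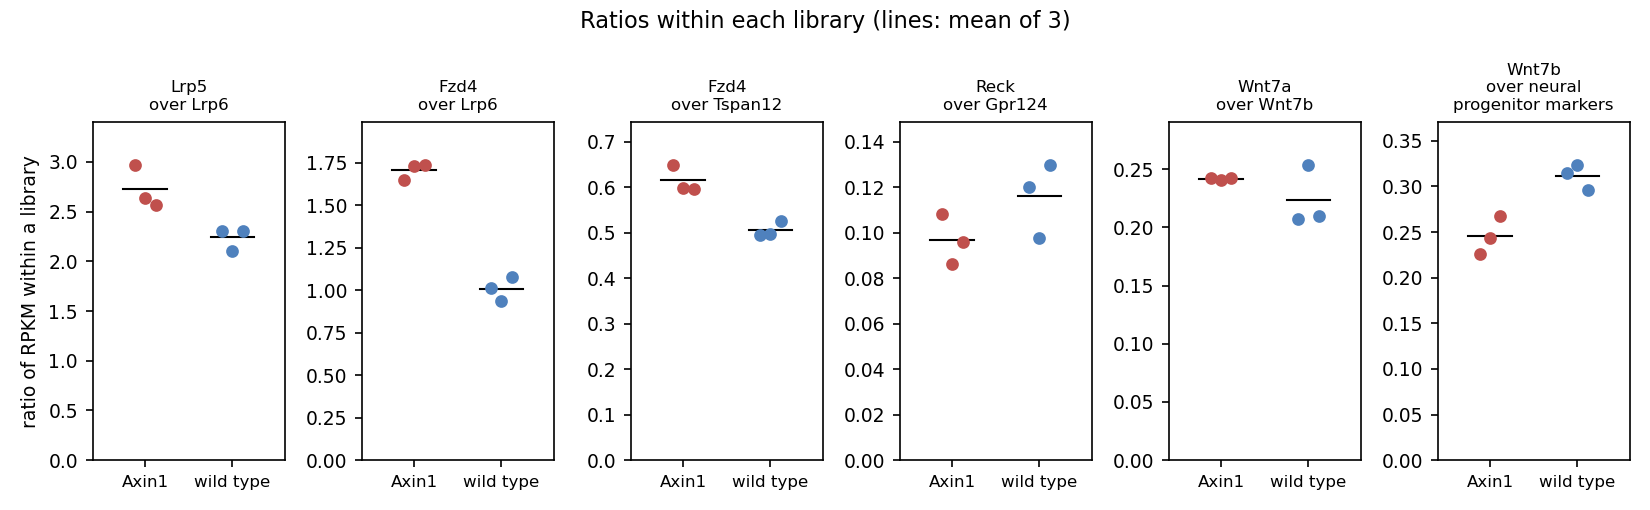
Ratio of RPKM between genes of the complexes within each library (points), for 3 Axin1 overexpression libraries (red, left) and 3 wild-type libraries (blue, right), with group means as lines and every axis starting at 0. The groups are apart for Lrp5 over Lrp6, Fzd4 over Lrp6, Fzd4 over Tspan12 and Wnt7b over the mean of the neural progenitor markers, and overlap for Reck over Gpr124 and Wnt7a over Wnt7b.

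In Axin1 libraries it ran Gpr124, Tspan12, Lrp5, Fzd4, Wnt7b, Lrp6, Reck, Wnt7a and Ndp, and the neighbours Tspan12 and Lrp5 overlapped in range. In wild-type libraries it ran Gpr124, Lrp5, Tspan12, Wnt7b, Fzd4, Lrp6, Reck, Wnt7a and Ndp, where Wnt7b overlapped Fzd4 (and was above it in 1 of 3 libraries) and Fzd4 overlapped Lrp6. All other neighbours were apart in 3 of 3 libraries of the group. The sum of the 9 genes was 211.5 to 226 RPKM in Axin1 libraries and 210.1 to 234 RPKM in wild-type libraries, and Gpr124 made up 34.1% to 35.1% of it in Axin1 libraries and 34.4% to 38.4% in wild-type libraries.

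**Figure D3:**
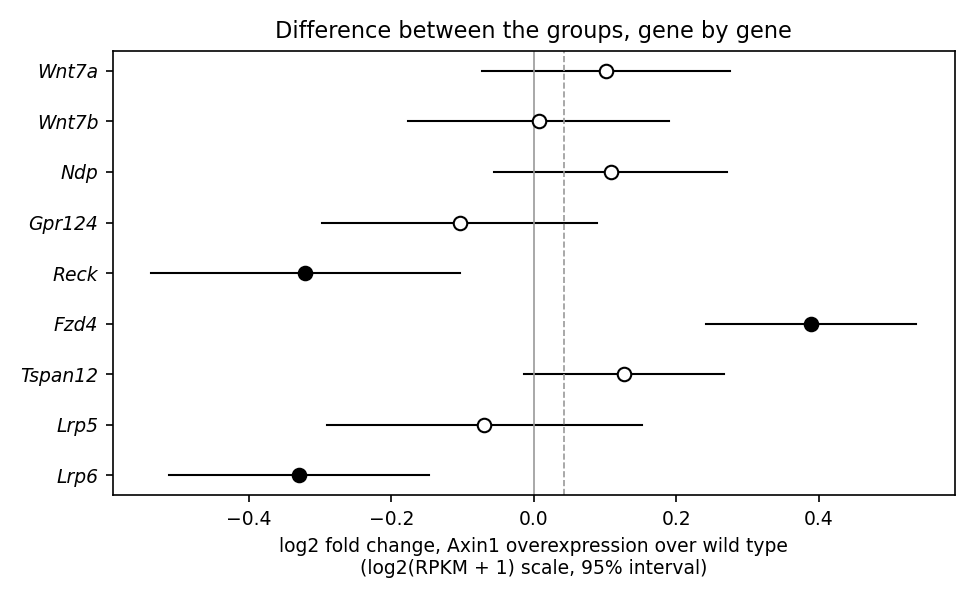
Log2 fold change of each gene, Axin1 overexpression over wild type, on the log2(RPKM + 1) scale with its 95% interval from limma (3 libraries per group); filled points have an adjusted p under 0.05, the solid line is 0 and the dashed line is the median of all tested genes, 0.04. Fzd4 at 0.39 lies to the right, and Reck at -0.32 and Lrp6 at -0.33 lie to the left, with intervals that do not reach 0.

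In the authors' deposited table, the same 3 genes of the 9 had an adjusted p under 0.05, where 8.88% of the 18917 genes with a value did. The mean normalized counts in the authors' deposited table were 3472 with Axin1 overexpression and 2700 in wild type for Fzd4 (adjusted p = 0.00409). For Lrp6, the authors' deposited table gave 5180 with Axin1 overexpression and 6828 in wild type (adjusted p = 0.015), and for Reck it gave 1327 with Axin1 overexpression and 1744 in wild type (adjusted p = 0.0421). The fold in the authors' deposited table runs the other way, as wild type over Axin1 overexpression, and was 0.778 for Fzd4, 1.32 for Lrp6 and 1.31 for Reck.

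**Figure D4:**
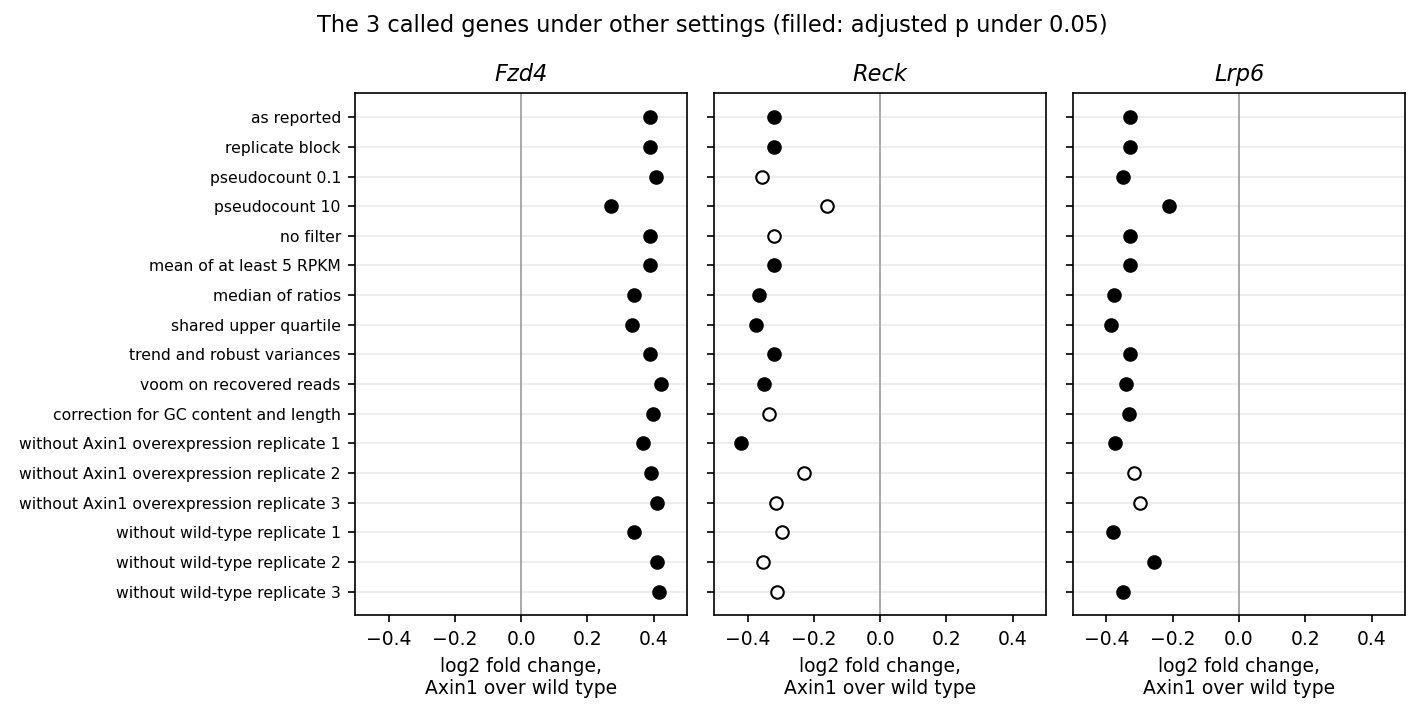
Log2 fold change (Axin1 overexpression over wild type) of Fzd4, Reck and Lrp6 as reported and under 16 other settings, 6 of which leave out 1 library; filled points have an adjusted p under 0.05. Fzd4 stays filled between 0.27 and 0.42, Lrp6 opens without Axin1 replicate 2 or 3, and Reck is open under 9 settings. Other pseudocounts and voom change the scale of the fold change.

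All tested response genes downstream of these receptors were lower. The counts in this paragraph stand against 14.4% of all tested genes higher and 8.37% lower. Of 10 listed Wnt response genes 9 were tested, and 9 were lower (median log2 fold change -0.77), also with any library left out. The list was chosen with earlier results of these data known, so this count is no independent test. Rnf43 lay under the filter, and its groups overlapped. The ubiquitin ligase gene Znrf3, a response gene whose product removes Frizzled and Lrp6 from the cell surface, had 2.50 ± 0.167 RPKM in Axin1 libraries and 4.05 ± 0.599 RPKM in wild-type libraries (SD, n = 3 each; log2 fold change -0.52, limma adjusted p = 0.00655). Genes for Frizzled turnover and the R-spondins, which hold Znrf3 back, went both ways: of 5 tested, 3 were higher (Rspo1, Rspo2 and Rspo3, with log2 fold changes of 0.28, 0.42 and 0.39) and Znrf3 was lower. With 1 library left out the count of higher genes was 0 to 2, being 0 without Axin1 replicate 2 and 1 without Axin1 replicate 1 or wild-type replicate 2 or 3. It was also 1 with a pseudocount of 10, with no filter or after the GC and length correction. Extracellular Wnt inhibitors did so too, with 2 of 9 higher and 5 lower (median -0.29), of which Apcdd1 and Notum are also among the response genes. Sfrp1, a secreted Wnt binder, was higher by 0.44 on the log2 scale, while Kremen1, which pairs with Dkk proteins to remove Lrp6, had a log2 fold change of -0.29. Of these inhibitor genes 0 were higher and 3 lower without Axin1 replicate 2, 1 was higher and 3 were lower without Axin1 replicate 3, and 1 was higher without Axin1 replicate 1. After the GC and length correction 1 was higher and 3 were lower, 1 was higher with median-of-ratios or upper-quartile scaling, and 2 were lower with a filter of 5 RPKM.

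Other Wnt ligand genes were low, and 12 of 17 lay under the filter. The counts in this paragraph stand against 14.4% of all tested genes higher and 8.37% lower, and no list was tested as a set. Of the 5 tested, Wnt5a, Wnt4 and Wnt5b were lower and 0 were higher by limma (median -0.50). Wnt5a, best known for signals that bypass beta-catenin, had 4.12 ± 0.113 RPKM in Axin1 libraries and 6.80 ± 0.132 RPKM in wild-type libraries (SD, n = 3 each; log2 fold change -0.61, limma adjusted p = 0.000371). Of 12 other Frizzled and co-receptor genes 1 was higher (Fzd8, 0.22) and 2 were lower (Fzd6 and Fzd10, -0.33 and -0.29). The count of lower genes among them was 0 without Axin1 replicate 2, and it was 1 without Axin1 replicate 3 or wild-type replicate 2 or 3. The count of higher genes was 1 without wild-type replicate 2 and 0 without any other single library, and also 0 with median-of-ratios or upper-quartile scaling. Among 5 genes of Wnt secretion and receptor maturation 1 was higher (Shisa2, which holds immature Frizzled back in the cell, 0.40), or 2 without Axin1 replicate 1, with a filter of 5 RPKM, with trend and robust variances or with voom on recovered reads. The chaperone of Lrp5 and Lrp6, Mesdc2, did not pass (log2 fold change 0.08, limma adjusted p = 0.33). Of 10 Gpr124 paralogs and cytoplasmic partners 1 was higher (Dock1, 0.29), and the count was 0 without Axin1 replicate 2 or 3 or wild-type replicate 1 and with upper-quartile scaling. It was 2 after the GC and length correction, with a pseudocount of 10, with a filter of 5 RPKM, with trend and robust variances or with voom.

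All 12 pan-endothelial markers passed the filter on low values. So did 12 of 12 neural progenitor and 10 of 10 neuron markers, so passing it does not show cell identity. Counts of called markers below stand against 14.4% higher and 8.37% lower among all tested genes. The pan-endothelial markers had a summed level of 2744 to 3017 RPKM in Axin1 libraries and 2757 to 2836 RPKM in wild-type libraries. Emcn was higher, Tie1 and Esam were lower, and the median log2 fold change was -0.08. The lower markers numbered 0 without Axin1 replicate 2 and 1 without Axin1 replicate 1 or 3 or wild-type replicate 1 or 3 or after the GC and length correction, and the higher ones 2 without wild-type replicate 2. Erythroid markers were higher (5 of 5 tested, median 1.67, summed level 413 to 775 RPKM in Axin1 libraries and 119 to 166 RPKM in wild-type libraries, with Hba-a1, Hba-a2 and Hbb-b1 listed at 0). Of 10 neuron markers 4 were higher (median 0.27, summed level 657 to 676 RPKM in Axin1 libraries and 530 to 677 RPKM in wild-type libraries), with 0 higher without Axin1 replicate 2 or 3 or after the GC and length correction. Neuron markers numbered 1 higher without Axin1 replicate 1 or wild-type replicate 3 or with upper-quartile scaling, and 2 without wild-type replicate 2 or with median-of-ratios scaling. Meningeal fibroblast markers were lower in 3 of 10 (median -0.32, summed level 133 to 163 RPKM in Axin1 libraries and 166 to 230 RPKM in wild-type libraries), or in 1 without Axin1 replicate 2 or 3, with a pseudocount of 10 or with no filter, and in 5 without wild-type replicate 2. The pericyte and smooth muscle count given with Reck was 0 without Axin1 replicate 2 or 3 or wild-type replicate 1 or with a pseudocount of 10. It was 1 without wild-type replicate 3, after the GC and length correction, with no filter or with a filter of 5 RPKM. Of 7 microglia and macrophage markers 1 was higher, Aif1, with a summed level of 19.1 to 35.2 RPKM in Axin1 libraries and 19.3 to 21.0 RPKM in wild-type libraries. That count was 3 without Axin1 replicate 2 and 0 without any other single library but Axin1 replicate 1. It was also 0 with either rescaling, the GC and length correction, a pseudocount of 10, no filter or a filter of 5 RPKM. The part of these other cells in the results for Fzd4 and Lrp6 was not tested.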

How the data were processed

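RNA on ribosomes of brain endothelial cells was prepared with the TruSeq RNA Sample prep kit v2, per the labels' protocols. Build mm9, Bowtie and DESeq are listed in the submitters' processing notes, and no source used here names the counter or filters. The 6 library columns that the authors deposited were read as RPKM, although no header says so: transcript lengths implied by the values were 0.991 of reference lengths (median of 8506 genes). Other deposited columns, per the file headers, hold each group's mean normalized count (a signal), their fold (a ratio), and raw and adjusted p-values. Which mean belongs to which group was read from the 1161 genes with reads in 1 group alone. Whole reads were recovered from RPKM and these means, within 0.05 reads for 100% of values of single-transcript genes and 84.3% of all values.

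From these values, limma 3.58.1 (R 4.3.3) was run on log2(RPKM + 1) for genes averaging 1 RPKM or more, group as the only factor, two-sided, Benjamini-Hochberg adjusted over all 12493 genes, threshold 0.05. The fit was tested on simulated data with the same fixed spread between replicates for every gene, which was not estimated from these libraries. Replicates differed by more than sampling noise (chi-square per degree of freedom 6.8 to 37.1), and the labels call them biological. Intervals and errors from reads cover counting error only. Ratios were tested with scipy 1.17.1. The members, lists and motifs were chosen with earlier results of these data known, and 7 of the 13 ratios were added after their values were seen. Named were the members, Axin1, genes of the lists, and the 3 genes whose centred log2(RPKM + 1) values over the 6 libraries differed least from each member. The reference used here, GRCm38, differs from mm9 and served for lengths, exon overlaps and promoters. Tables and figures were made with numpy 2.4.6, pandas 2.3.3 and matplotlib 3.10.9 in Python 3.11.15.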

Additional observations from a re-analysis of the deposited data

How the results depend on the processing

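The replicate numbers of the labels were not used as pairs in the main fit. Deviations from the group means correlated across genes at 0.078, 0.127 and 0.059 for replicates 1, 2 and 3, with 1 of these above 0.1. Such correlations cannot decide whether the samples were paired. Each library did correlate best with its own number, a hint from the data and not from the design. With the replicate block 1591 genes were higher and 1084 lower, and Fzd4, Reck and Lrp6 stayed called (adjusted p = 0.0134, 0.0264 and 0.033). Under the block 0 in place of 1 of the other Frizzled and co-receptor genes were higher, 2 in place of 1 of the secretion and maturation genes were higher, and 6 in place of 3 meningeal fibroblast markers were lower. A filter of 5 RPKM left fewer genes to test, with 3 erythroid markers and 0 turnover genes higher and 1 other Wnt ligand, 6 response genes and 0 turnover genes lower. The count of lower members was 1 in place of 2 with a pseudocount of 0.1, a pseudocount of 10, no filter or the GC and length correction, in each case for loss of Reck (log2 fold change -0.36, -0.16, -0.32 and -0.33; limma adjusted p = 0.055, 0.0523, 0.0921 and 0.0626). The number of higher genes was 1117 with the shared upper quartile and 919 after the GC and length correction. Uncalled members turned sign: Wnt7b to -0.041 with the median of ratios and -0.049 with the shared upper quartile, and Ndp to -0.032, Gpr124 to 0.106, Tspan12 to -0.055 and Lrp5 to 0.1 after the GC and length correction. The causes were not tested. With each library left out in turn, which leaves 2 in a group assumed to vary like the other, higher genes numbered 589 to 1492, lower genes 465 to 933, higher members 1 and lower members 0 to 2. The log2 fold change ranged from -0.419 to -0.23 for Reck, -0.38 to -0.258 for Lrp6, 0.342 to 0.415 for Fzd4, -0.037 to 0.086 for Wnt7b and -0.179 to 0.005 for Lrp5. A mean of at least 5 RPKM left Wnt7a and Ndp untested. Depth limits Ndp most.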

Other observations

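The genes whose pattern over the 6 libraries lay nearest to each changed member were read from log2(RPKM + 1) values centred on each gene's mean, as a root-mean-square difference. For Fzd4 these were Cd9, a tetraspanin gene (0.0252), Fam211a (0.026) and Stc1, which encodes a secreted glycoprotein (0.0273). Cd9 averaged 42.4 RPKM in Axin1 libraries and 32.2 RPKM in wild-type libraries, a log2 fold change of 0.39. For Reck they were Clpb, a mitochondrial chaperone gene (0.0243), Fbxo34 (0.0346) and the semaphorin gene Sema3g (0.0415). For Lrp6 they were Dcbld1 (0.0295), the acetyltransferase gene Crebbp (0.0377) and Rev3l, the catalytic subunit of a DNA polymerase (0.0377). Over all 9 members the 27 nearest genes differed by 0.0138 to 0.0415.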
